A study of Mus musculus with 12 samples.

Results

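The FoxO1 inhibitor AS1842856 (FoxOi) was added to loperamide in Min6 cells, a mouse beta cell line derived from an insulinoma, and the cells were compared with cells given loperamide alone. The comparison covers 6 of the 12 mRNA sequencing libraries of the series, chosen by their treatment labels. The FoxOi_Loperamide group (3 libraries) received 1 µM FoxOi and 5 µM loperamide for 48 h. The Loperamide group (3 libraries) received 5 µM loperamide for 48 h, so both groups of the comparison carry loperamide. The FoxOi group (1 µM FoxOi) and the DMSO group (solvent only), with 3 libraries each and the same 48 h, served to ask whether the inhibitor acted differently in cells without loperamide. All libraries come from 1 cell line, and the labels do not say whether libraries of a group are separate cultures, so p-values measure the spread between these libraries, which may be technical.

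FoxO1 is a transcription factor that insulin signalling keeps out of the nucleus: Akt phosphorylates it, and it then stays in the cytoplasm. In cells starved of insulin or under stress it enters the nucleus and activates genes of growth arrest, protein breakdown and stress defence. In beta cells FoxO1 is known for its part in keeping cells differentiated, and mice that lack it in beta cells lose beta cell identity under metabolic stress. AS1842856 is a small molecule that binds FoxO1 and blocks its transcriptional activity. Loperamide is an opioid receptor agonist used against diarrhoea. The title of the series names 2 roles of FoxO1 as its questions, one in holding glucagon down and one in the maturation of insulin.

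Total counts were 17539431, 15018492 and 15859386 in FoxOi_Loperamide and 10640485, 13081647 and 14009431 in Loperamide. Every Loperamide library was thus shallower than every FoxOi_Loperamide library. Over all 12 libraries they ran from 10640485 to 19499216. Between libraries within a group the chi-square of the counts per degree of freedom was 6.04 to 16.8 in FoxOi_Loperamide and 4.98 to 11.5 in Loperamide, more than counting noise, so no library was a repeat of another. The label of a beta cell line held in every library, with Ins1 and Ins2 together at 1.99% to 2.32% of all counts in FoxOi_Loperamide and 4.52% to 4.66% in Loperamide. Mitochondrial genes took 2.38% to 3.30% of counts in FoxOi_Loperamide and 1.89% to 2.80% in Loperamide. Markers of other cells were low: the 8 acinar markers summed to at most 0.125 CPM (counts scaled to a common library size) in FoxOi_Loperamide and 0.216 CPM in Loperamide, with 5 of them at 0 in all 6 libraries. The 6 endothelial markers summed to 0.732 to 0.925 CPM in FoxOi_Loperamide against 1.82 to 3.08 CPM in Loperamide, the 9 mesenchymal markers to 1.25 to 1.71 CPM in FoxOi_Loperamide against 3.27 to 4.53 CPM in Loperamide. The 12 macrophage and leukocyte markers summed to 11.1 to 13.5 CPM in FoxOi_Loperamide against 19.8 to 24.5 CPM in Loperamide. Of the other lists, 7 ductal markers summed to 120 to 174 CPM in FoxOi_Loperamide against 168 to 229 CPM in Loperamide, and 10 neuronal markers, many of which beta cells share, to 868 to 930 CPM in FoxOi_Loperamide against 1026 to 1094 CPM in Loperamide. The part of these cells in the results below was not tested. In bulk RNA, fewer cells of a type and less RNA per cell cannot be told apart.

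Adding FoxOi on loperamide lowered insulin, the beta cell transcription factors and the genes of glucose sensing, and it raised glucagon, p53 target genes, lysosomal genes, ribosomal protein genes and genes of mitosis. A gene was called at an adjusted p under 0.05 (edgeR quasi-likelihood test, Benjamini-Hochberg over all 16808 genes tested). By that rule 6541 genes (38.9%) differed between FoxOi_Loperamide and Loperamide, 3099 of them higher (18.4%) and 3442 lower (20.5%) with the inhibitor. Changes of at least 2-fold were more often falls, with 486 genes higher (2.89%) and 1095 lower (6.51%), 9.41% in all. The median log2 fold change over all genes tested was -0.0068, and every count of list members below is to be read against these shares. In cells without loperamide the inhibitor (FoxOi against DMSO) changed 6881 genes (40.9%), 3476 higher (20.7%) and 3405 lower (20.3%), with a median of 0.01. By at least 2-fold, 952 of them were higher (5.66%) and 908 lower (5.4%).

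The first genes of interest were the hormones. Gcg encodes glucagon, the alpha cell hormone that beta cells normally keep low (ENSMUSG00000000394, chromosome 2). It stood at 690, 550 and 519 CPM in the FoxOi_Loperamide libraries, against 112, 156 and 96.5 CPM in the Loperamide libraries. The groups did not overlap, as was so for 50.3% of all genes tested, and the lowest FoxOi_Loperamide library held more than 3 times the highest Loperamide library. The log2 fold change was 2.27 ± 0.20 (standard error, SE, adjusted p = 3.58e-06), a 4.83-fold rise. Without loperamide Gcg was already high, at a mean of 1084 CPM in FoxOi and 717 CPM in DMSO, and the inhibitor moved it by 0.59 ± 0.19 (adjusted p = 0.027). That smaller call was lost without FoxOi replicate 1 or 2 or DMSO replicate 1 or 3, with adjusted p up to 0.124. The effect of FoxOi on Gcg was larger with loperamide than without by 1.68 on the log2 scale (interaction, adjusted p = 0.00219). Gcg was thus lowest in cells given loperamide alone.

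Both insulin genes moved the other way. Ins1 (ENSMUSG00000035804, chromosome 19) stood at 1130.5, 1072 and 955 CPM in FoxOi_Loperamide, against 2352, 2782 and 2407 CPM in Loperamide, a fall of 1.26 ± 0.13 on the log2 scale (adjusted p = 5.5e-06). Ins2 (ENSMUSG00000000215, chromosome 7), the more abundant of the pair, stood at 20988, 17751 and 18286 CPM in FoxOi_Loperamide, against 43539, 43494 and 43143 CPM in Loperamide. Every FoxOi_Loperamide library lay far below every Loperamide library for both genes, and Ins2 fell by 1.19 ± 0.13 (adjusted p = 6.15e-06). Ins1 and Ins2 are near-identical in their coding sequence, so the authors' counting may have split reads between them. The interaction was not called for either (0.23, adjusted p = 0.519, and 0.17, adjusted p = 0.648).

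The windows just before the start sites of Gcg and Ins1 are shown because these are the hormones that moved in opposite directions and because homeodomain factors of the Pdx1 and Nkx6-1 kind recognise a core of TAAT. Each line gives 250 bases before the start in RefSeq (GRCm38.p6), 5′ to 3′ along the gene, and the capitals mark TAAT on either strand. The Gcg window lies at chr2:62483654-62483903 on the minus strand and the Ins1 window at chr19:52264047-52264296 on the plus strand.
Gcg: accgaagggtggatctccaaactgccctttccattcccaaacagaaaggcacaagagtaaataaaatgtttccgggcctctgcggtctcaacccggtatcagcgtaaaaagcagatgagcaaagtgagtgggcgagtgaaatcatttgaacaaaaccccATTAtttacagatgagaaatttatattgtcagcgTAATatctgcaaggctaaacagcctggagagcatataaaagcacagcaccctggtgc
Ins1: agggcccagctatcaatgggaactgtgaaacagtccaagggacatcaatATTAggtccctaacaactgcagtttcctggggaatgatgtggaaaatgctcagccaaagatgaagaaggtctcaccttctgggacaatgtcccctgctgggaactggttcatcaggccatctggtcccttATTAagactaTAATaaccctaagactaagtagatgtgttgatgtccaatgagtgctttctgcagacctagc
The core begins 91 and 57 bases before the start of Gcg, and 201, 71 and 61 bases before the start of Ins1. TAAT is a short and common run: it was in 54.9% of all 32851 promoter windows and in 7 of the 15 windows (46.7%) matched to 13 of the 18 insulin and granule genes. A match is a description of the letters, not of binding.

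**Figure D1:**
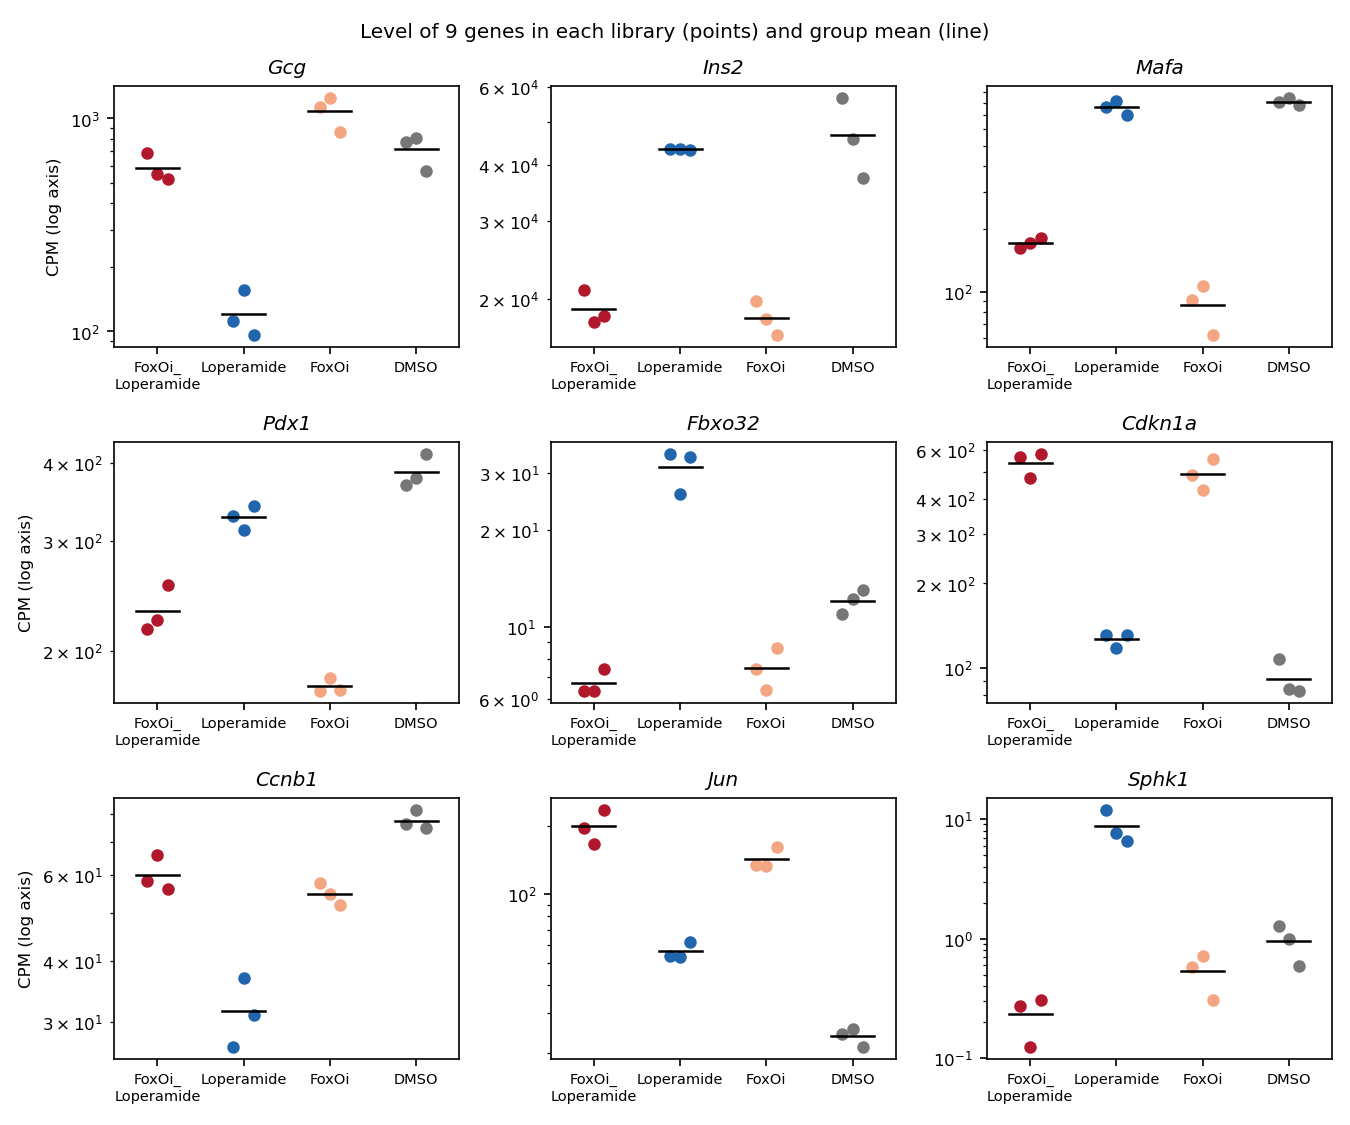
Level of 9 genes in CPM (log axis) in each library (points) with the group mean (line), for FoxOi_Loperamide, Loperamide, FoxOi and DMSO. Gcg is at 519 CPM or more in FoxOi_Loperamide and at 156 CPM or less in Loperamide, while Mafa is at 180 CPM or less in FoxOi_Loperamide and at 700 CPM or more in Loperamide.

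Transcription factors that define beta cells fell as a group. Of 17 tested, 15 fell, 0 rose and 2 were not called, with a list median of -0.91 (20.5% of all genes fell). Mafa, which binds insulin promoters and marks mature beta cells, stood at 162, 171 and 180 CPM in FoxOi_Loperamide, against 764, 819 and 700 CPM in Loperamide. The groups lay far apart, and Mafa fell by 2.15 ± 0.15 (adjusted p = 1.08e-07). Nkx2-2, a repressor needed for beta cell fate, stood at 40.9, 42.4 and 42.8 CPM in FoxOi_Loperamide, against 203, 189 and 160 CPM in Loperamide, a fall of 2.13 ± 0.10 (adjusted p = 4.02e-09). Pdx1, which drives pancreas development and insulin transcription, stood at 216, 224 and 255 CPM in FoxOi_Loperamide, against 330, 312 and 341 CPM in Loperamide. Its groups did not overlap either, but its fall of 0.50 ± 0.08 (adjusted p = 0.000265) was modest. Nkx6-1, which represses the alpha cell programme, stood at 254, 243 and 232 CPM in FoxOi_Loperamide, against 362, 345 and 303 CPM in Loperamide, and fell by 0.47 ± 0.11 (adjusted p = 0.00381). Myt1 fell by 1.42 ± 0.09, Mnx1 by 1.40, Hnf4a by 1.10, Isl1 by 0.93 ± 0.07 and Pax6 by 0.92. Foxa1 (-0.23) was not called.

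The same list fell without loperamide, where 13 of 17 members were lower in FoxOi than in DMSO with a median of -1.13. For 5 members the effect of FoxOi differed between the settings (3.66% of all genes had a positive interaction), and in each the fall was smaller with loperamide: Mafa by 1.07 on the log2 scale (adjusted p = 0.00331), Pdx1 by 0.64 (adjusted p = 0.00251), Isl1 by 0.44 (adjusted p = 0.00868), and Pax6 and Rfx6 by 0.56 each. Mafa averaged 86.5 CPM in FoxOi and 811 CPM in DMSO, so its DMSO level was close to the level with loperamide alone and its level under the inhibitor was lower without loperamide.

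Genes that process and package insulin mostly fell. Of 18, 13 fell and 2 rose, with a median of -0.87. Iapp encodes amylin, the peptide released with insulin, and stood at 6704, 5564 and 6440 CPM in FoxOi_Loperamide, against 13059, 13247 and 13660 CPM in Loperamide. It fell by 1.10 ± 0.09 (adjusted p = 7.51e-07), more than without loperamide (interaction -0.78, adjusted p = 0.00158), where it averaged 14665 CPM in FoxOi and 18254 CPM in DMSO. Pcsk2, a proinsulin convertase, fell by 1.00 ± 0.09 at 1802, 1483 and 1829 CPM in FoxOi_Loperamide, against 3232, 3404 and 3615 CPM in Loperamide. The other convertase, Pcsk1, did not pass the test: it stood at 274, 267 and 275 CPM in FoxOi_Loperamide, against 228, 290 and 271 CPM in Loperamide, overlapping groups with a log2 fold change of 0.05 ± 0.09 (adjusted p = 0.695). The granule proteins Chgb (fell by 0.90 ± 0.08), Chga (by 0.80) and Ptprn (by 0.90 ± 0.08) were lower, and Ero1lb, an oxidase that helps proinsulin fold, fell by 0.97. Vgf (0.44) and Scg2 (0.25), both granins, were the 2 that rose, and the call of Scg2 was lost without FoxOi_Loperamide replicate 1 or 3, Loperamide replicate 1 or 2 or FoxOi replicate 3 (adjusted p 0.0505 to 0.163). The zinc transporter Slc30a8 was at -0.17 and not called.

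Genes of glucose sensing and exocytosis fell as well, with 18 of 24 lower, 0 higher and a median of -0.71. Ffar1, a fatty acid receptor that boosts insulin release, stood at 121, 86.9 and 94 CPM in FoxOi_Loperamide, against 522, 539 and 497 CPM in Loperamide. Its groups were more than 4-fold apart, and it fell by 2.37 ± 0.11 (adjusted p = 4.42e-09). Trpm5, a cation channel of beta cell excitability, fell by 2.18 ± 0.13, at 17.6, 14.4 and 13.9 CPM in FoxOi_Loperamide against 71.8, 70.2 and 66.6 CPM in Loperamide. Ucn3, a peptide of mature beta cells, was low in this line, at 2.88, 1.5 and 2.26 CPM in FoxOi_Loperamide against 10.6, 10.9 and 10.5 CPM in Loperamide, and fell by 2.26 ± 0.23 (adjusted p = 3.9e-06). The incretin receptor Gipr fell by 1.85 ± 0.13 and the vesicle calcium sensor Syt7 by 1.30 ± 0.09. The subunits of the ATP-sensitive potassium channel, Kcnj11 (fell by 0.80) and Abcc8 (by 0.73), moved together. Slc2a2, the glucose transporter of rodent beta cells, was near the detection limit at 1.03, 1.56 and 1.28 CPM in FoxOi_Loperamide and 1.77, 1.75 and 0.935 CPM in Loperamide, and did not pass the test (-0.19 ± 0.34, adjusted p = 0.698). Without loperamide 17 of 24 fell and 1 rose.

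Other hormones and alpha cell genes did not move as a block. Of 10 hormone genes tested 2 rose and 3 fell, and apart from Gcg the riser was Tph2 (1.01), a serotonin synthesis enzyme. Its call was lost without FoxOi_Loperamide replicate 1 or 2 or Loperamide replicate 1 or 2 (adjusted p 0.0771 to 0.136). Sct (secretin) fell by 1.43 ± 0.20, Tph1 by 0.83 ± 0.22 and Cck by 0.59 ± 0.11. Among 6 alpha cell genes tested, Gcg, the amino acid transporter Slc7a2 and the vitamin D binding protein gene Gc were higher and the transcription factor Irx1 was lower. Slc7a2 stood at 354, 425 and 493 CPM in FoxOi_Loperamide, against 247, 286 and 291 CPM in Loperamide, a rise of 0.62 ± 0.15 (adjusted p = 0.00488), while without loperamide it was lower with the inhibitor, at a mean of 91.6 CPM in FoxOi and 170 CPM in DMSO. The interaction of Slc7a2 was 1.51 (adjusted p = 0.000524). The call of Gc (1.10 ± 0.37, adjusted p = 0.0347) was lost without any 1 of the 3 FoxOi_Loperamide libraries or without Loperamide replicate 1 or 3 (adjusted p 0.0516 to 0.109). It was also lost in the fit to the 6 libraries alone (adjusted p = 0.0625) and with the replicate number as a block in the fit. Irx1 fell by 1.51 ± 0.18.

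Genes of endocrine progenitors gave little signal. Neurog3, which starts the endocrine programme, had 0 counts in all 12 libraries. Aldh1a3, an aldehyde dehydrogenase gene that rises when beta cells dedifferentiate, had 14 counts over the FoxOi_Loperamide libraries and 10 over the Loperamide libraries, too few to test. Of the 4 genes of this list that were tested, Mycl fell by 1.39 and 0 rose. The fall was not called without FoxOi_Loperamide replicate 1 or 3 or Loperamide replicate 2 (adjusted p 0.082 to 0.125).

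Genes that beta cells normally keep silent, and genes of glycolysis, rose more often than they fell. Of 10 disallowed genes 6 rose and 1 fell, with a median of 0.49, and 4 rose without FoxOi_Loperamide replicate 1. Slc16a1, a lactate and pyruvate transporter, stood at 66.1, 75.8 and 89.8 CPM in FoxOi_Loperamide, against 23.2, 22.2 and 27.8 CPM in Loperamide, a rise of 1.66 ± 0.17 (adjusted p = 4.37e-06). Ldha, the lactate dehydrogenase subunit, was low but apart, at 2.12, 1.31 and 3.23 CPM in FoxOi_Loperamide against 0.28, 0.532 and 0.719 CPM in Loperamide, and rose by 2.06 ± 0.41. In cells without loperamide Ldha reached a mean of 22.9 CPM in FoxOi and 1.30 CPM in DMSO. Of 16 glycolysis genes 9 rose and 4 fell, with a median of 0.59. The phosphofructokinase Pfkp stood at 117, 108 and 127 CPM in FoxOi_Loperamide, against 47.9, 49.5 and 54.6 CPM in Loperamide, and rose by 1.21 ± 0.08, while the isoforms Pfkl (-0.38) and Pfkm (-0.46) fell. Tpi1 (0.82 ± 0.09), Eno1 (0.80), Gpi1 (0.79 ± 0.08) and Pgk1 (0.77 ± 0.07) rose together.

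Hypoxia genes split in direction. Of 10 tested, 3 rose and 5 fell, with 3 falls without FoxOi_Loperamide replicate 3 or Loperamide replicate 1 or 2, or without FoxOi replicate 1 or DMSO replicate 2. Adm, the peptide adrenomedullin, stood at 4.03, 3.88 and 4.76 CPM in FoxOi_Loperamide, against 0.746, 0.684 and 1.08 CPM in Loperamide, and rose by 2.31 ± 0.30. Ndrg1 fell by 0.65 ± 0.09 with loperamide, whereas without loperamide it was at 0.25 ± 0.09, with a difference of -0.90 between the settings (adjusted p = 0.000337).

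The transcripts of the FoxO factors themselves changed little. Foxo1 stood at 39.7, 38.4 and 44.7 CPM in FoxOi_Loperamide, against 42.9, 46.7 and 49.5 CPM in Loperamide, overlapping groups with a log2 fold change of -0.18 ± 0.11 that was not called (adjusted p = 0.196). Within each replicate number Foxo1 was lower with the inhibitor, and with that number as a block in the edgeR fit it was called (adjusted p = 0.0445). The compound acts on the protein, so the mRNA level does not check the treatment. Foxo3 (-0.28) and Foxo6 (-0.42) were lower and Foxo4 (-0.29) was not called, and 0 of the 4 were called without FoxOi_Loperamide replicate 1 or 2 or Loperamide replicate 1 or 2. Foxo6 was also not called without FoxOi_Loperamide replicate 3, FoxOi replicate 1 or DMSO replicate 2 (adjusted p up to 0.148).

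Genes listed here as direct FoxO targets fell more often than they rose. Cdkn1a, which rose and is given with the p53 targets below, is not on this list. Of 19 tested, 10 fell and 3 rose, with a median of -0.58. Fbxo32 encodes atrogin-1, a ubiquitin ligase that FoxO factors switch on in wasting muscle. It stood at 6.37, 6.38 and 7.44 CPM in FoxOi_Loperamide, against 34.3, 25.8 and 33.6 CPM in Loperamide, and fell by 2.21 ± 0.14 (adjusted p = 5.34e-08). In cells without loperamide it averaged 7.49 CPM in FoxOi and 12.1 CPM in DMSO, so the level under the inhibitor was alike in both settings and the level without it was higher in loperamide. The interaction was -1.53 (adjusted p = 0.000278). Ccng2, a cyclin of growth arrest, showed the same order: 9.36, 9 and 7.93 CPM in FoxOi_Loperamide against 29.8, 26.7 and 27.4 CPM in Loperamide, a fall of 1.67 ± 0.14, with means of 10 CPM in FoxOi and 16.2 CPM in DMSO (interaction -0.99, adjusted p = 0.00547). Mxi1, an antagonist of Myc, stood at 15.1, 14.5 and 15.5 CPM in FoxOi_Loperamide, against 41.6, 36.0 and 39.5 CPM in Loperamide, and fell by 1.37 ± 0.09, with means of 13.3 CPM in FoxOi and 17.0 CPM in DMSO (interaction -1.02, adjusted p = 0.000243).

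Sesn1, a stress-induced inhibitor of mTORC1, fell by 0.96 ± 0.10, Bcl2l11 (the death gene Bim) by 0.64, the cell cycle inhibitor Cdkn1b by 0.60 ± 0.10, Irs2 by 0.59 ± 0.12 and Insr by 0.58. The 3 that rose were catalase, Cat (1.48), Klf6 (1.00) and Gadd45a (0.38). The call of Insr was lost without FoxOi_Loperamide replicate 1 or 2, Loperamide replicate 2 or 3 or FoxOi replicate 2 (adjusted p 0.0522 to 0.151), and that of Gadd45a without Loperamide replicate 2 (adjusted p = 0.0551). Sod2, a mitochondrial superoxide dismutase, was at -0.14 and not called. Without loperamide 8 of the 19 fell and 5 rose, with a median of -0.14, and 6 members had a called negative interaction (5.82% of all genes did): Fbxo32, Ccng2, Mxi1, Klf6, Bcl6 and Bbc3.

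A promoter window of Mxi1 is shown because Mxi1 fell in all 3 inhibitor libraries and the window holds the FoxO core. It is window 3 of the gene, and the windows listed before it did not hold the core. The letters GTAAACA, in capitals, begin 231 bases before the start that this window belongs to (RefSeq, GRCm38.p6, chr19:53329445-53329694, plus strand).
Mxi1: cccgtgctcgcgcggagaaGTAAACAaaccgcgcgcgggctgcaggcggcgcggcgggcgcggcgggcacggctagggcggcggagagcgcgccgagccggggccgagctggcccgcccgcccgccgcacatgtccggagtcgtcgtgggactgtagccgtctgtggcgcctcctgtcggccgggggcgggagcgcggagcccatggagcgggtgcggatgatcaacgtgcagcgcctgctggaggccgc
The core was in 4 of 29 windows (13.8%) matched to 22 of the 24 listed FoxO targets, against 3.17% of all 32851 windows, on either strand. The genes with it were Bbc3, Bcl2l11, Mxi1 and Trim63. Of these, Bcl2l11 and Mxi1 fell, Bbc3 was not called and Trim63 was not tested. Fbxo32 and Ccng2, which fell further than Mxi1, were not among the genes with it.

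**Figure D2:**
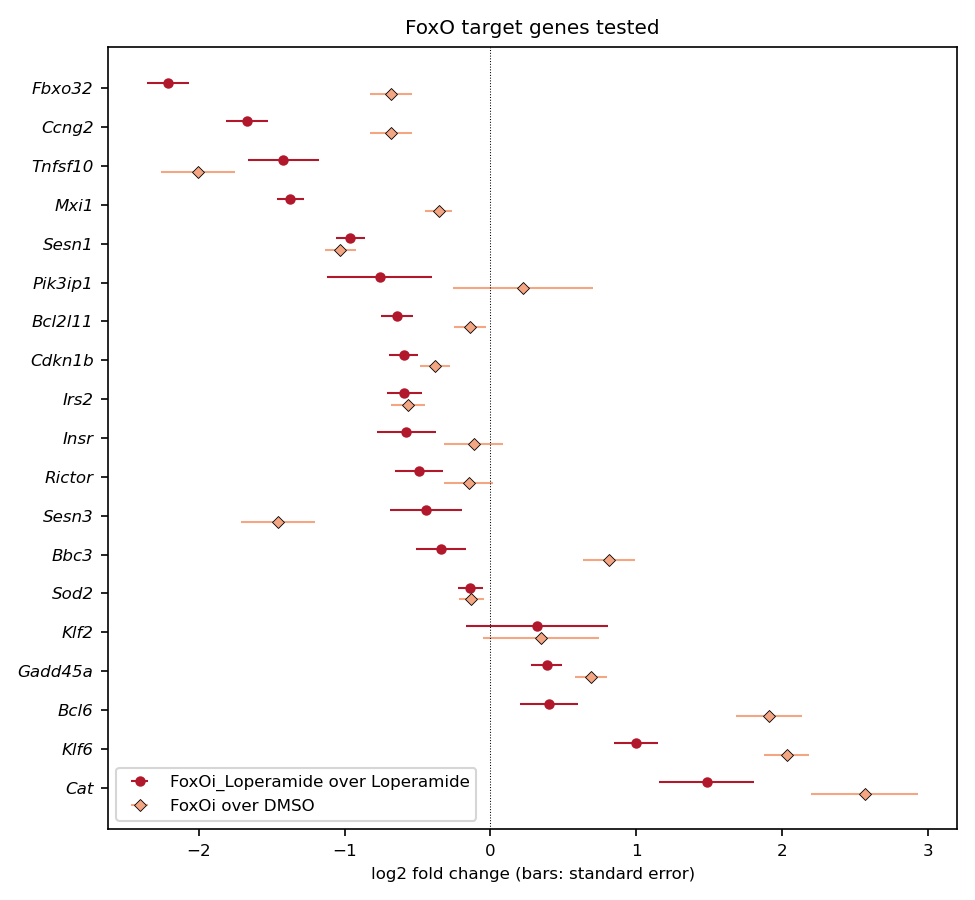
Log2 fold change with its standard error of the 19 FoxO target genes tested, for FoxOi_Loperamide over Loperamide (circles) and FoxOi over DMSO (diamonds). Fbxo32 is at -2.21 with loperamide and -0.68 without, Mxi1 at -1.37 and -0.36, while Sesn1 lies at about the same value in both.

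Of 20 genes of insulin and IGF signalling, upstream of FoxO, 6 fell and 0 rose (4 fell without FoxOi_Loperamide replicate 1). Igf1r, the IGF1 receptor, stood at 89.7, 90.8 and 113 CPM in FoxOi_Loperamide, against 187, 228 and 248 CPM in Loperamide, a fall of 1.18 ± 0.14. The regulatory subunit Pik3r1 fell by 0.66 ± 0.15 and Igf2 by 0.61 ± 0.15. Akt1 (0.15) and Mtor (0.08) were not called. Mlxipl, the glucose-sensing factor ChREBP, stood at 86.7, 57.4 and 54.9 CPM in FoxOi_Loperamide, against 782, 806 and 704 CPM in Loperamide. Mlxipl thus fell by 3.52 ± 0.22 (adjusted p = 1.55e-07) with groups far apart, while its well-known target Txnip was at -0.01 and not called.

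Targets of p53, the factor that halts or kills damaged cells, rose as a group. Of 20 tested, 15 rose and 1 fell, with a median of 1.08 (18.4% of all genes rose). Cdkn1a encodes p21, an inhibitor of cell cycle kinases, and stood at 564, 475 and 581 CPM in FoxOi_Loperamide, against 131, 117.7 and 131 CPM in Loperamide. It rose by 2.09 ± 0.12 (adjusted p = 2.62e-08), with no overlap. Phlda3, an inhibitor of Akt, stood at 39, 31.4 and 40.9 CPM in FoxOi_Loperamide, against 4.94, 7.14 and 6.90 CPM in Loperamide, a rise of 2.54 ± 0.19. Plk2 rose by 1.96 ± 0.14, the death receptor gene Eda2r by 1.74, Ccng1 by 1.67, the nuclease gene Aen by 1.63 ± 0.10, Mdm2 by 0.69 and Bax by 0.72. The 1 that fell was Sesn1, which is also on the FoxO list, and Bbc3 (-0.34) was not called. Without loperamide 16 of 20 rose and 1 fell, with a median of 0.85.

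**Figure D3:**
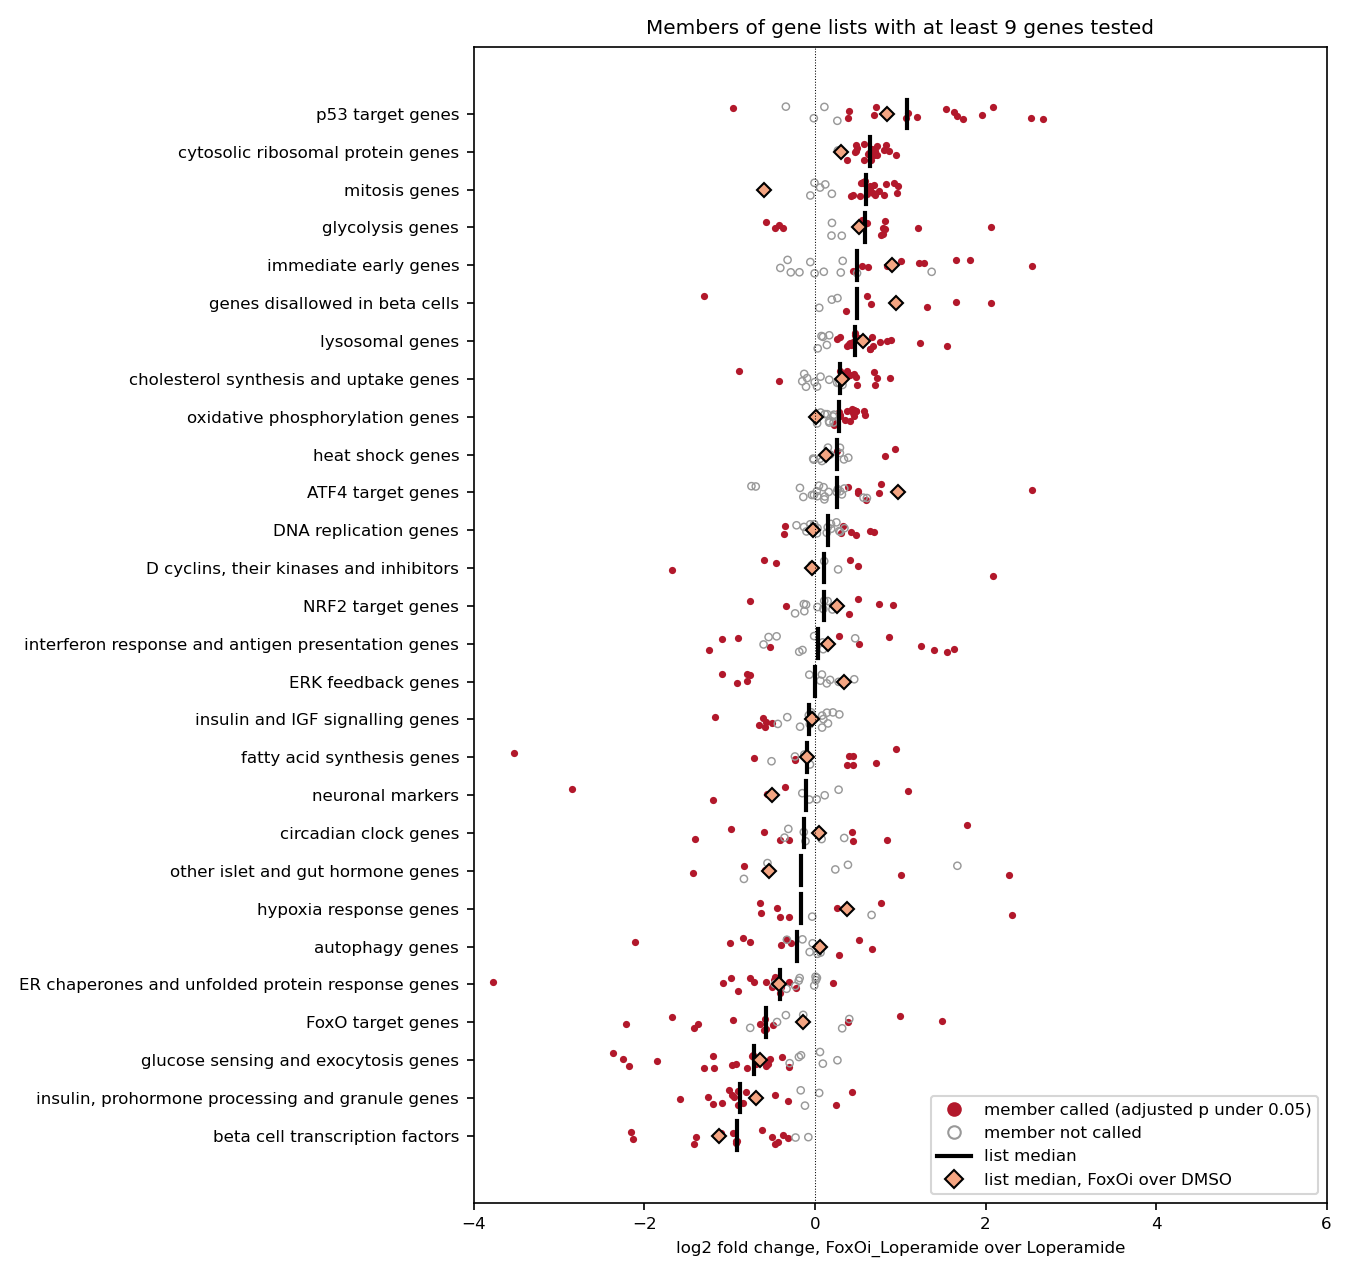
Log2 fold changes of FoxOi_Loperamide over Loperamide for the tested members of each gene list with at least 9 genes (filled where called, open where not), with the list median (bar) and the median of FoxOi over DMSO (diamond). The 2 medians lie on opposite sides of 0 for the mitosis genes (0.60 with loperamide, -0.60 without), and close together for the lysosomal genes (0.47 and 0.56).

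Genes of mitosis rose with FoxOi in loperamide-treated cells and fell with it in cells without loperamide. Of 24 tested, 19 rose and 0 fell in FoxOi_Loperamide against Loperamide (median 0.60), and 0 rose and 21 fell in FoxOi against DMSO (median -0.60). All 24 had a called positive interaction, with a median of 1.22, and all 24 were called with any 1 of the 12 libraries left out. The counts of risers ran from 17 to 19 with 1 library left out. Ccnb1, the cyclin that triggers entry into mitosis, stood at 58.2, 65.8 and 56.0 CPM in FoxOi_Loperamide, against 26.7, 36.9 and 31 CPM in Loperamide. The lowest inhibitor library lay above the highest Loperamide library, and Ccnb1 rose by 0.93 ± 0.11 (adjusted p = 1.46e-05). In cells without loperamide it averaged 54.7 CPM in FoxOi and 77.3 CPM in DMSO, a fall of 0.50 ± 0.11, and the interaction was 1.42 (adjusted p = 5.73e-05).

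Bub1, a kinase of the spindle checkpoint, stood at 37.7, 54.4 and 47.0 CPM in FoxOi_Loperamide, against 19.5, 26.1 and 25.1 CPM in Loperamide (rise of 0.97 ± 0.14). Birc5, which encodes survivin, rose by 0.97 ± 0.14, and Tpx2, a spindle assembly factor, by 0.61 ± 0.09, with interactions of 1.10 (adjusted p = 0.00184) and 1.2 (adjusted p = 4.6e-05). Loperamide alone held the lowest mean of the 4 groups for these 4 genes, and the highest was in DMSO for Ccnb1, Birc5, Bub1 and Tpx2 alike. The 5 members not called as higher were Plk1 (0.06), Cdc20 (-0.01), Cenpf (0.20), Kif23 (0.12) and Nusap1 (-0.05). Cdkn1a, an inhibitor of cell division, was high in the same FoxOi_Loperamide libraries in which these genes were high relative to Loperamide. Neither the number of dividing cells nor its part in these values was tested.

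**Figure D4:**
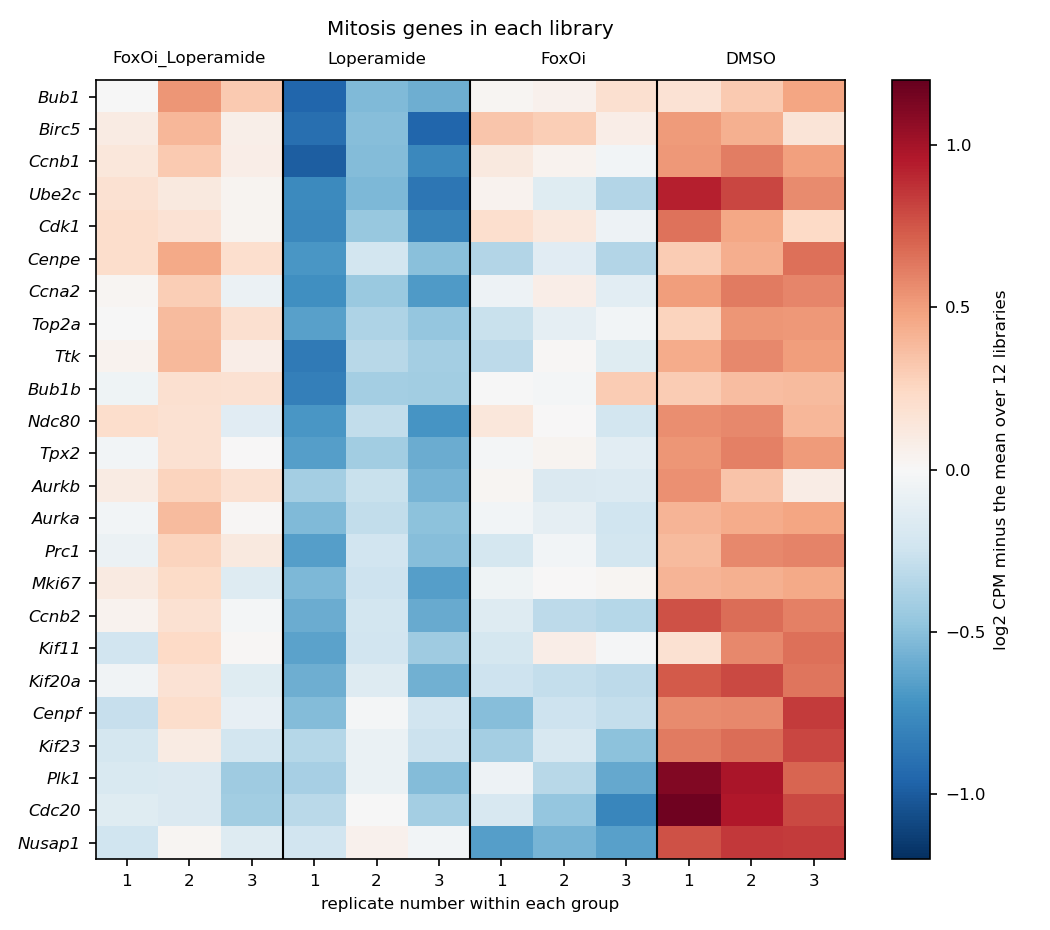
Log2 CPM minus the gene's mean over 12 libraries for 24 mitosis genes (rows, ordered by the log2 fold change of FoxOi_Loperamide over Loperamide) in each library (columns). The Loperamide libraries are low for most genes and the DMSO libraries high, with Bub1 at the top (0.97) and Nusap1 at the bottom (-0.05).

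Promoter windows of Ccnb1 and Bub1 are shown because mitosis genes share a CCAAT box, the recognition letters of the factor NF-Y, close to their start sites. Capitals mark CCAAT on either strand (RefSeq, GRCm38.p6, 250 bases before the start). The Ccnb1 window is chr13:100786487-100786736 and the Bub1 window chr2:127831860-127832109, both on the minus strand.
Ccnb1: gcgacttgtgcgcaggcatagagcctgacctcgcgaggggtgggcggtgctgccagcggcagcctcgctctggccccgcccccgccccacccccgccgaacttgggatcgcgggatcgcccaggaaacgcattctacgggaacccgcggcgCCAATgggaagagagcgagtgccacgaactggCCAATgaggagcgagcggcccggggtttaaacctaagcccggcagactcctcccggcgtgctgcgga
Bub1: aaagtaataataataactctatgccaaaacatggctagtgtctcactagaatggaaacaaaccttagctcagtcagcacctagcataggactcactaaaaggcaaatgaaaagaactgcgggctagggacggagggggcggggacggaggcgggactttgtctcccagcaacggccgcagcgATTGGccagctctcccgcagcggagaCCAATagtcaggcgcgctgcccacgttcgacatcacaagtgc
The boxes begin 99 and 67 bases before the start of Ccnb1, and 68 and 42 bases before the start of Bub1. CCAAT was in 18 of 21 windows (85.7%) matched to 20 of the 24 mitosis genes, against 33.8% of all 32851 windows. The cell cycle homology region, TTTGAA on either strand, was in 8 of the 21 (38.1%) against 16% of all windows.

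Genes of DNA replication, which takes place earlier in the cell cycle than mitosis, moved less. Of 25 tested, 6 rose and 2 fell, with a median of 0.15, and 10 rose without Loperamide replicate 2 while 1 fell without FoxOi_Loperamide replicate 1 or Loperamide replicate 2. The ribonucleotide reductase subunit Rrm1 rose by 0.69 ± 0.13, the polymerase subunit Pole by 0.65 ± 0.12 and the clamp loader subunit Rfc4 by 0.48 ± 0.10. The helicase subunit Mcm6 fell by 0.35 ± 0.09, and Mcm2, Mcm3, Mcm5 and Mcm7 were not called. Among the D cyclins, their kinases and inhibitors, 3 of 9 rose and 3 fell. The inhibitors split: Cdkn1a (2.09), Cdkn2b (0.51) and Cdkn2a (0.42) rose, while Cdkn1c (-1.67 ± 0.35), Cdkn1b (-0.60 ± 0.10) and Cdkn2c (-0.45 ± 0.08) fell. Cdkn2b was not called without FoxOi_Loperamide replicate 3 or Loperamide replicate 1 (adjusted p 0.0538 to 0.0834), nor Cdkn2a without Loperamide replicate 3 (adjusted p = 0.0554).

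The integrated stress response, in which the factor ATF4 switches on amino acid synthesis and transport, was raised by FoxOi without loperamide and much less with it. Of 27 ATF4 target genes 7 rose and 0 fell with loperamide (median 0.26), against 24 risers without (median 0.98). The effect was smaller with loperamide for 18 of the 27 (5.82% of all genes had a negative interaction), a count that was 9 without DMSO replicate 2, and 11 without FoxOi_Loperamide replicate 3 or FoxOi replicate 2. Atf3, a stress-induced factor, stood at 54.5, 42.2 and 34.3 CPM in FoxOi_Loperamide, against 9.60, 7.14 and 5.90 CPM in Loperamide, a rise of 2.55 ± 0.23 (adjusted p = 2.22e-06). Slc7a11, the cystine transporter, stood at 28.3, 34.6 and 32.9 CPM in FoxOi_Loperamide, against 16.4, 22.2 and 18.3 CPM in Loperamide, and rose by 0.75 ± 0.19, with means of 51.1 CPM in FoxOi and 10.5 CPM in DMSO (interaction -1.54, adjusted p = 0.00255). The transporter partner Slc3a2 rose by 0.60 ± 0.11 and the serine synthesis enzymes Phgdh by 0.50 ± 0.12 and Psat1 by 0.39 ± 0.08. Trib3, a pseudokinase of this response, stood at 212, 193 and 139 CPM in FoxOi_Loperamide, against 213, 176 and 114 CPM in Loperamide, and was not called (0.12, adjusted p = 0.762). Its level was high in both loperamide groups and in FoxOi alone (mean 213 CPM), and low in DMSO (mean 53.1 CPM).

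Chaperones of the endoplasmic reticulum and other genes of the unfolded protein response went down. Of 25, 15 fell and 1 rose, with a median of -0.40, close to the 17 that fell and 1 that rose without loperamide (median -0.42). Derl3, which takes part in the removal of misfolded proteins, stood at 0.326, 0.25 and 0.427 CPM in FoxOi_Loperamide, against 3.08, 4.86 and 5.90 CPM in Loperamide, a fall of 3.77 ± 0.32 (adjusted p = 6.05e-07). Xbp1, the factor that drives secretory capacity, stood at 98.0, 82.4 and 69.0 CPM in FoxOi_Loperamide, against 165, 184 and 177.9 CPM in Loperamide, and fell by 1.08 ± 0.11. Ern1, the sensor that splices Xbp1, fell by 0.98. The chaperone Hyou1 fell by 0.90 ± 0.09 and the ubiquitin ligase Syvn1 by 0.76 ± 0.08, while Hspa5 (BiP) fell by 0.49. Pdia6 (0.01), Dnajb9 (-0.01), Canx (0.02) and Dnajb11 (0.01) were not called, and Derl1 (0.22) was the 1 that rose, a call lost without any 1 FoxOi_Loperamide library or without Loperamide replicate 2 (adjusted p 0.0565 to 0.150).

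Windows of Derl3 and Syvn1 are shown because both fell and both hold the ER stress response element, read here as CCAAT, then 9 bases of any kind, then CCACG, on either strand. Capitals mark the element (RefSeq, GRCm38.p6). The Derl3 window is chr10:75893148-75893397 and the Syvn1 window chr19:6046326-6046575, both on the plus strand.
Derl3: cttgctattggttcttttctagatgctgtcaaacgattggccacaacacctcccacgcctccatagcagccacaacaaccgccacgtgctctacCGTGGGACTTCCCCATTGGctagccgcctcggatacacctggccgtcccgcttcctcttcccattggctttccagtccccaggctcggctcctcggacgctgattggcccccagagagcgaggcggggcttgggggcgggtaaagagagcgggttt
Syvn1: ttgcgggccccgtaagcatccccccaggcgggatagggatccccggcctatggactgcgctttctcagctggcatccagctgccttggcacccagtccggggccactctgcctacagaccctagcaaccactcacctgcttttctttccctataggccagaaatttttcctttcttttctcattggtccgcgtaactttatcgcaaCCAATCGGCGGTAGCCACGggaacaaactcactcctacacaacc
The element begins 156 bases before the start of Derl3 and 44 bases before that of Syvn1. It was in 9 of 22 windows (40.9%) matched to 21 of the 25 listed genes, against 37 of all 32851 windows (0.113%). Holding it did not go with a fall in each case: of the 9 genes with it, Calr, Creld2, Derl3, Dnajc3, Hspa5 and Syvn1 fell, and Canx, Hsp90b1 and Pdia6 were not called. The falls of Calr (-0.23) and Dnajc3 (-0.30) were not called without FoxOi_Loperamide replicate 2 or 3, Loperamide replicate 2 or 3, FoxOi replicate 1 or DMSO replicate 2, nor was that of Calr without DMSO replicate 1 or 3, nor that of Dnajc3 without FoxOi_Loperamide replicate 1 (adjusted p up to 0.186).

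Antioxidant and heat shock genes were called in part. Of 16 targets of NRF2, the antioxidant regulator, 5 rose and 2 fell (3 rose without Loperamide replicate 2, and 1 fell without FoxOi_Loperamide replicate 1 or Loperamide replicate 1). Hmox1, heme oxygenase, stood at 421, 382 and 422 CPM in FoxOi_Loperamide, against 278, 167 and 206 CPM in Loperamide, a rise of 0.91 ± 0.15, smaller than without loperamide, where the means were 398 CPM in FoxOi and 75.7 CPM in DMSO (interaction -1.48, adjusted p = 0.000526). Nqo1 fell by 0.76 ± 0.09. Of 13 heat shock genes 3 rose and 0 fell, led by the mitochondrial chaperonin pair Hspd1 (0.94 ± 0.08) and Hspe1 (0.82 ± 0.13). The third, Hspa8 (0.26 ± 0.09, adjusted p = 0.026), was not called without FoxOi_Loperamide replicate 2 or 3 or Loperamide replicate 1 or 3 (adjusted p 0.0556 to 0.104).

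Immediate early genes, the first to respond to growth factors and stress, rose in part. Of 21 tested 10 rose and 0 fell, with a median of 0.49, and 7 rose without FoxOi_Loperamide replicate 3. The count of fallers was 1 without FoxOi_Loperamide replicate 1 or 2, Loperamide replicate 2, FoxOi replicate 3 or DMSO replicate 1 or 2. Jun stood at 195, 167 and 235 CPM in FoxOi_Loperamide, against 53.8, 53.3 and 61.8 CPM in Loperamide, a rise of 1.82 ± 0.13 (adjusted p = 9.7e-08). Ier3 rose by 1.22 ± 0.14 and Klf4 by 1.01 ± 0.13, while Fos (-0.18), Myc (0.10) and Egr1 (-0.41, adjusted p = 0.0539) were not called. Egr1 was called as lower without FoxOi_Loperamide replicate 2 or DMSO replicate 1 or 2 (adjusted p 0.0232 to 0.0417). Feedback genes of ERK signalling went the other way where they were called, with 5 of 12 lower and 0 higher. Dusp5, a phosphatase of nuclear ERK, fell by 1.09 ± 0.13, the sprouty gene Spry4 by 0.91 ± 0.20, and the factors Etv1 by 0.80 ± 0.15 and Etv5 by 0.76 ± 0.19. Etv5 was higher with FoxOi without loperamide (0.49 ± 0.13), and the settings differed by -1.25 (adjusted p = 0.00285).

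Of 7 genes of the EGF receptor family tested, 1 rose and 2 fell. Areg, the ligand amphiregulin, stood at 8.16, 8 and 8.05 CPM in FoxOi_Loperamide, against 0.186, 0.228 and 0.216 CPM in Loperamide. The rise of 5.20 ± 0.30 (adjusted p = 1.93e-08) was among the largest of all genes, yet it was smaller than without loperamide, where Areg averaged 136 CPM in FoxOi and 0.406 CPM in DMSO (interaction -3.19, adjusted p = 0.00857). The receptor Egfr fell by 0.70 ± 0.10 and the ligand Hbegf by 0.59 ± 0.11. Hbegf was higher with the inhibitor without loperamide (0.50 ± 0.11, interaction -1.09, adjusted p = 0.0005). Of 8 matrix metalloproteinases and inhibitors tested, Mmp12 and Mmp13 were higher, both with 0 counts in every Loperamide library and at most 0.854 CPM and 0.375 CPM in FoxOi_Loperamide. Mmp13 was too low in both compared groups to pass the count filter there, and was tested only through the groups without loperamide. The count of risers was 1 without FoxOi_Loperamide replicate 2 or any 1 of the Loperamide libraries.

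Genes of lipid synthesis moved unevenly. Of 25 cholesterol genes 12 rose and 2 fell, with a median of 0.29 (1 fell without FoxOi_Loperamide replicate 3 or Loperamide replicate 1). Ebp, a sterol isomerase, rose by 0.88 ± 0.12, Acat2 by 0.71 ± 0.10 and Dhcr7 by 0.48 ± 0.09. Of 15 fatty acid genes 6 rose and 4 fell (3 rose without Loperamide replicate 2, and 2 fell without FoxOi_Loperamide replicate 2 or Loperamide replicate 3). The synthase Fasn rose by 0.72 ± 0.09 and the elongase Elovl6 by 0.95 ± 0.15, while Acly, which supplies acetyl-CoA, fell by 0.71 ± 0.09.

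Lysosomal genes rose and autophagy genes mostly did not. Of 25 lysosomal genes 20 rose and 0 fell, with a median of 0.47, and the count stayed at 20 with any 1 library left out. Ctsb, the protease cathepsin B, stood at 1234, 1050 and 1423 CPM in FoxOi_Loperamide, against 508, 505 and 567 CPM in Loperamide, a rise of 1.23 ± 0.11 (adjusted p = 8.32e-07). Gla, a glycosidase, rose by 1.54 ± 0.12 and the cholesterol carrier Npc2 by 0.84 ± 0.08. Cd68, a lysosomal membrane protein counted above among macrophage markers, rose by 1.90 while Ptprc, the leukocyte antigen, had 1 count over the FoxOi_Loperamide libraries and 1 over the Loperamide libraries. Of 16 autophagy genes 3 rose and 7 fell. Wipi1, a phosphoinositide-binding protein of autophagosome formation, stood at 35.6, 32.2 and 40.9 CPM in FoxOi_Loperamide, against 136, 153 and 182 CPM in Loperamide. It fell by 2.11 ± 0.13 (adjusted p = 3.27e-08), with means of 273 CPM in FoxOi and 338 CPM in DMSO (interaction -1.80, adjusted p = 2.58e-05). Nbr1 fell by 0.99 ± 0.10 and Ulk1 by 0.85 ± 0.10, while the receptor gene Sqstm1 rose by 0.67.

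Most ribosomal protein genes rose, as did 16 of 27 genes of oxidative phosphorylation. Of 22 ribosomal protein genes 21 rose and 0 fell, with a median of 0.65 and a range from 0.27 to 0.95; 17 rose without Loperamide replicate 3. Rpl3 stood at 711, 552 and 627 CPM in FoxOi_Loperamide, against 326, 326 and 327 CPM in Loperamide, a rise of 0.95 ± 0.12. These genes have many near-identical copies in the genome, and the counting may have split reads between them. Without loperamide 11 of the 22 rose (median 0.31), a count that was 5 without FoxOi replicate 1 or DMSO replicate 3, 6 without DMSO replicate 2 and 18 without DMSO replicate 1. Of the oxidative phosphorylation genes 0 fell and 11 were not called, with a median of 0.29, and 10 rose without Loperamide replicate 3. The ATP synthase subunit Atp5b stood at 1083, 1081 and 1181 CPM in FoxOi_Loperamide, against 714, 761 and 760 CPM in Loperamide, a rise of 0.58 ± 0.07. Without loperamide 2 rose (1 without FoxOi replicate 1 or 2 or DMSO replicate 2 or 3) and 3 fell (median 0.01), and Atp5b averaged 1172 CPM in FoxOi and 1146 CPM in DMSO (interaction 0.55, adjusted p = 0.00341).

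Interferon and clock genes were mixed in direction, and 1 opioid gene was called. Of 20 interferon and antigen presentation genes 7 rose and 4 fell: B2m, the light chain of class I molecules, rose by 1.24 ± 0.11, and the transcription factor Irf7 fell by 1.24 ± 0.20. Of 15 circadian clock genes 4 rose and 5 fell. Bhlhe40, a clock repressor, stood at 54.7, 51.2 and 54.9 CPM in FoxOi_Loperamide, against 15.7, 13.9 and 17.3 CPM in Loperamide, a rise of 1.78 ± 0.11, smaller than without loperamide (3.24 ± 0.12, interaction -1.46, adjusted p = 8.33e-05). Per3 fell by 1.41 ± 0.16. Among 5 opioid genes tested the mu receptor gene Oprm1, loperamide's own target, was near detection at 1.2, 0.875 and 0.854 CPM in FoxOi_Loperamide and 1.12, 1.60 and 1.58 CPM in Loperamide, and was not called. The delta receptor gene Oprd1 was at -1.25 (adjusted p = 0.0596) and was called without Loperamide replicate 1 or DMSO replicate 1 (adjusted p 0.0126 to 0.0475), which made 2 falls on this list. Pdyn, the dynorphin precursor, stood at 168, 194 and 153 CPM in FoxOi_Loperamide, against 1836, 2443 and 2603 CPM in Loperamide, a fall of 3.74 (adjusted p = 1.24e-09).

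The largest rises and falls outside these lists involved genes of several kinds. Stmn4, a tubulin-binding protein of neurons, stood at 36.9, 23.4 and 36.2 CPM in FoxOi_Loperamide, against 1.03, 0.76 and 0.719 CPM in Loperamide, a rise of 5.28 ± 0.32. Sox11, a factor of neural and pancreatic development, rose by 4.50 ± 0.35, the lectin gene Lgals3 by 4.53 ± 0.41, the carbonic anhydrase Car6 by 3.66 ± 0.41 and the nuclease Dnase1l3 by 3.57 ± 0.39. Gpnmb, a glycoprotein of lysosome-rich cells, had 138 counts in FoxOi_Loperamide and 2 in Loperamide, a ratio of 51.4 after depth with a counting interval from 13.95 to 428. Dtna had 127 counts against 7, a ratio of 13.5 (6.37 to 34.3). Every one of these 8 genes was also higher in FoxOi than in DMSO, Areg included.

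Sphk1, which makes sphingosine 1-phosphate, had the largest fall among the genes ranked. These were called genes at a mean of at least 1 CPM whose groups did not overlap, without predicted genes and clones. It stood at 0.272, 0.125 and 0.305 CPM in FoxOi_Loperamide, against 11.9, 7.60 and 6.54 CPM in Loperamide, a fall of 5.14 ± 0.38 (adjusted p = 1.97e-07). Without loperamide it was low in both groups, at means of 0.534 CPM in FoxOi and 0.954 CPM in DMSO, and did not pass the test, so the high level was seen with loperamide alone (interaction -4.28, adjusted p = 0.000638). The mucin gene Muc4 fell by 5.03 ± 0.71, Grrp1 by 4.41 ± 0.55, the hyaluronan receptor gene Lyve1 by 4.08 ± 0.26, Tcp11l2 by 4.04 ± 0.31 and the noncoding gene Mirg by 3.75 ± 0.38. Baiap3, a regulator of dense-core vesicle traffic, stood at 14.8, 8.25 and 10.7 CPM in FoxOi_Loperamide, against 217, 183 and 172 CPM in Loperamide, a fall of 4.07 ± 0.26 that was alike without loperamide (4.12 ± 0.27 lower in FoxOi).

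How far the inhibitor's effect depended on loperamide was asked over all genes with the interaction. It was called for 1594 genes (9.48%), 616 positive (3.66%) and 978 negative (5.82%). It reached at least 2-fold for 3.63% of genes, with 201 positive and 409 negative (2.43%). Leaving out DMSO replicate 2 gave 597 negative calls, and leaving out DMSO replicate 3 gave 957 positive ones. With the replicate number as a block in the fit, the interaction was called for 4334 genes, 1920 positive and 2414 negative. The counts that follow are from the fit without that block. The 2 comparisons share no library. Of the genes called in both, 3998 moved the same way, which is 61.1% of the calls with loperamide and 58.1% of those without, and 225 moved in opposite directions. All 225 had the interaction called, which is close to certain for genes chosen by 2 called effects of opposite sign. Of the 225, 101 were higher with the inhibitor in loperamide and lower without it, and 124 the reverse. Across the 16808 genes, which are not independent replicates, the log2 fold changes of both comparisons had a Pearson r of 0.655. Among the 6541 genes that differed between FoxOi_Loperamide and Loperamide, 1038 (15.9%) had the interaction called. By the estimates, 234 of them moved less than without loperamide, 325 moved further and 479 had the opposite sign. The sign without loperamide was taken whether or not that effect was called, and only 225 of the 479 were called in both. Genes not called with loperamide are left out of this split.

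**Figure D5:**
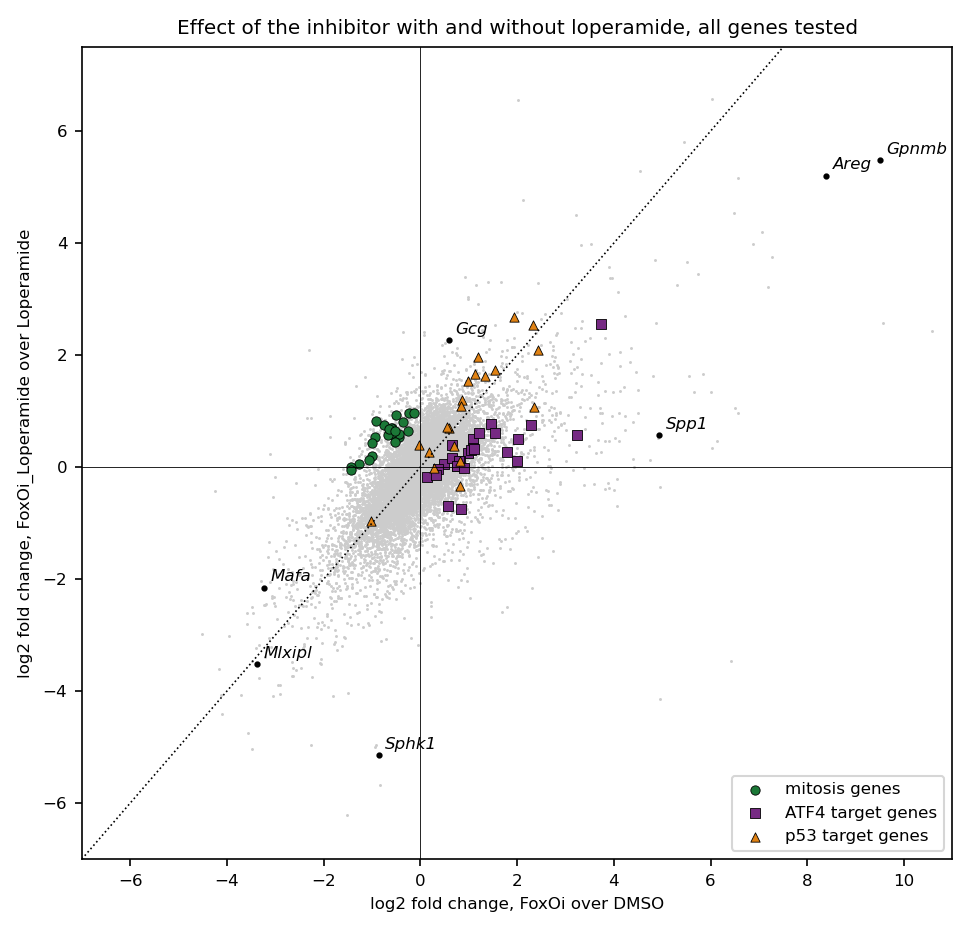
Log2 fold change of FoxOi_Loperamide over Loperamide (vertical) against FoxOi over DMSO (horizontal) for the 16808 genes tested, with the line of equal effect dotted. Mitosis genes lie upper left, ATF4 target genes lie below the line at right, and p53 target genes spread along it; Sphk1 is at -5.14 with loperamide and -0.86 without, and Spp1 at 0.57 and 4.94.

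The genes with the largest positive interaction included Dll1, a Notch ligand, and Lrrn3, a membrane protein. Dll1 stood at 33.5, 28.0 and 20.1 CPM in FoxOi_Loperamide, against 6.52, 7.14 and 7.69 CPM in Loperamide, and at means of 4.89 CPM in FoxOi and 6.34 CPM in DMSO (interaction 2.31, adjusted p = 0.000108). It was thus high in the FoxOi_Loperamide group and in none of the other 3. Lrrn3 stood at 10.8, 10.3 and 9.03 CPM in FoxOi_Loperamide, against 1.49, 2.51 and 1.58 CPM in Loperamide, with means of 7.30 CPM in FoxOi and 6.94 CPM in DMSO (interaction 2.35, adjusted p = 0.000104). Here the odd group was Loperamide alone, which was low.

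At the other end, Spp1, the secreted protein osteopontin, stood at 0.979, 1.38 and 0.854 CPM in FoxOi_Loperamide and 0.746, 0.836 and 0.575 CPM in Loperamide, and at means of 202 CPM in FoxOi and 6.55 CPM in DMSO (interaction -4.37, adjusted p = 2.14e-05). A high level was seen with the inhibitor alone and with neither group that had loperamide. Other genes of this pattern were rare in both loperamide groups, as with Pla2g2e, a secreted phospholipase, which had 9 counts over the FoxOi_Loperamide libraries, 1 over Loperamide, 665 over FoxOi and 0 over DMSO. Its relative Pla2g5 had 0, 5, 241 and 6 counts in the same order of groups. Cryab, a small heat shock protein, averaged 7.71 CPM in FoxOi and 0.107 CPM in DMSO and was at 0.288 CPM or less in each of the 6 libraries with loperamide. Its interaction (-5.69, adjusted p = 0.00492) was not called without Loperamide replicate 3 (adjusted p = 0.067). Pla2g2e, Pla2g5 and Cryab were too low in the groups other than FoxOi to pass the count filter there. They were tested only through the FoxOi group, so their interactions rest on the group that admitted them.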

How the data were processed

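Gene expression was measured in 12 stranded mRNA libraries read as single reads of 50 bases. The authors deposited raw counts per gene and FPKM values. Tools listed in the submitters' processing notes are DESeq2, Picard (2.19.2) and STAR (2.7.5a), with mm10 and GRCm38 as builds. Which tool counted reads, and with which strand setting, is not given in the sources used here, so reads of overlapping or antisense genes may be shared. Gene positions come from the files.

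The test on the counts was the quasi-likelihood test of edgeR 4.0.16 (R 4.3.3). Of 55487 genes, filterByExpr (minimum count 10, minimum total 15) kept 16808. Libraries were scaled with TMM, and a robust quasi-likelihood model with the group as its only term was fitted to all 12 libraries, with Benjamini-Hochberg adjustment over all genes tested and a threshold of 0.05. Log2 fold changes used a prior count of 0.125, and their SE is the absolute value divided by the square root of F. CPM are per 1000000 of the TMM-scaled library size. The interaction is the log2 effect of FoxOi with loperamide minus its effect without. Floors and counting intervals, at 95%, cover counting error only. The scripts were tested on simulated data.

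Named genes are a fixed core of 12, the 8 largest rises and 8 largest falls at a mean of at least 1 CPM, at most 4 genes per list, those of lowest adjusted p, where a list had at least 3 called, and the 6 largest interactions in each direction. The largest changes were ranked among called genes, without predicted genes, clones, repeated symbols and mitochondrial tRNAs. For rises and falls the 2 groups also had to not overlap. Other genes were chosen after their values were seen, and the comparison, the 40 lists (628 genes, 545 tested) and the rule were chosen with earlier results of these data known. Alternatives were RLE scaling, no filter, no robust dispersion, a replicate block, the 6 libraries alone, DESeq2 1.42.0, limma 3.58.1 on log2(FPKM + 1) and log2(FPKM + 0.1), and leaving out each library. The fold changes from FPKM understate the change of low genes. Results for some genes are not reported here.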

Additional observations from a re-analysis of the deposited data

Results flagged for a closer look

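The named genes below differed in the effect of FoxOi with and without loperamide by the interaction test (edgeR quasi-likelihood, adjusted p under 0.05), given as the log2 effect with loperamide minus that without. Of the 64 genes given, 25 had a positive and 39 a negative difference. Among hormones and beta cell factors it was 1.68 for Gcg, 1.07 for Mafa, 0.64 for Pdx1, 0.44 for Isl1 and -0.78 for Iapp. Among cell cycle genes it was 1.42 for Ccnb1, 1.21 for Bub1, 1.2 for Tpx2, 1.10 for Birc5 and 0.53 for Cdkn2c, and for the p53 target Plk2 it was 0.76. Among FoxO targets it was -1.53 for Fbxo32, -1.02 for Mxi1 and -0.99 for Ccng2.

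Among stress, amino acid and redox genes it was -1.54 for Slc7a11, -0.61 for Slc3a2, -0.58 for Phgdh, -1.18 for Atf3, -0.68 for Xbp1, -1.48 for Hmox1, -0.54 for Nqo1 and -5.69 for Cryab, while for the amino acid transporter Slc7a2 it was 1.51. Among hypoxia, lactate and clock genes it was -1.50 for Adm, -0.90 for Ndrg1, -0.40 for Egln1, -2.07 for Ldha, -1.46 for Bhlhe40 and -0.75 for Bhlhe41. For early response and growth factor genes it was -0.76 for Jun, -0.88 for Ier3, -0.65 for Dusp5, -1.10 for Spry4, -1.25 for Etv5, -3.19 for Areg, -1.09 for Hbegf, -0.73 for Igf1r and 0.56 for Egfr.

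For autophagy genes it was -1.80 for Wipi1, -0.62 for Wipi2 and -0.48 for Ulk1. For lipid genes it was 0.73 for Ebp and 0.64 for Dhcr7, and for mitochondrial and ribosomal genes it was 0.50 for Atp5a1, 0.55 for Atp5b, 0.69 for Rpl3 and 0.57 for Rplp1. For exocytosis, neuronal and antigen genes it was -0.72 for Syt7, -0.63 for Trpm5, -0.58 for Elavl4, 1.32 for Stmn2 and -0.69 for Tap2. The remaining genes, named for the size of the difference, were Adam32 (2.79), Lrrn3 (2.35), Dll1 (2.31), St14 (2.02), Upk3a (2.00), Fmo1 (1.98), Sphk1 (-4.28), Spp1 (-4.37), Lyzl4 (-4.45), Mylk2 (-4.67), Pla2g2e (-8.14) and Pla2g5 (-9.11). Lyzl4, Pla2g2e and Pla2g5 had few counts in both groups with loperamide. Mylk2 had 69 counts in FoxOi_Loperamide and 20 in Loperamide, but 3 in DMSO, and Pla2g2e had 0 in DMSO. Cryab was rare in every group but FoxOi, and its difference ran from -7.14 to -2.59 over the settings. For these genes the fitted size depends on the prior count.

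Of the 64 calls, 38 kept their call and direction under every alternative and 0 changed sign. Calls of 21 genes were lost with at least 1 library left out. Those lost in 8 or more of the 12 leave-outs were Adm and Ulk1 (11 each), Egln1, Elavl4, Rplp1 and Stmn2 (10 each), Atf3, Dusp5, Phgdh and Pla2g2e (9 each), and Igf1r and Trpm5 (8 each). Fewer leave-outs ended the calls of Ldha (5), Tap2 (4), Egfr, Plk2 and Slc3a2 (3 each), Nqo1 (2), Cryab (without Loperamide replicate 3) and Ier3 and Xbp1 (without DMSO replicate 2). The calls of Fmo1, Jun, Rpl3, Spry4 and St14 were lost under other settings only.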

How the results depend on the processing

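Of 149 named genes tested, 136 kept their call for FoxOi_Loperamide against Loperamide under every alternative, and in the same direction where called. Of the leave-outs, this count used only those of the 6 compared libraries. Among called genes 0 changed sign. The estimates of Pcsk1 (-0.041 to 0.1272) and Cryab (-0.0376 to 0.8726) crossed 0 between settings, and neither gene was called in any of them. The genes called numbered 6541, against 6538 with RLE scaling, 6662 with no filter, 6525 with no robust dispersion, 6494 in the fit to the 6 libraries and 6516 with DESeq2. With 1 of the 6 compared libraries left out they ran from 5479 to 5771, with 2531 to 2724 higher and 2875 to 3047 lower. By at least 2-fold, 478 to 507 were higher and 1025 to 1128 lower. Interaction calls, 1594 as reported, ran from 1082 to 1894 with any 1 of the 12 libraries left out. Positive calls ran from 465 (without Loperamide replicate 3) to 957 (without DMSO replicate 3), and negative ones from 597 (without DMSO replicate 2) to 937. By at least 2-fold, 168 to 235 were positive and 323 to 436 negative. On log2(FPKM + 1), 202 genes were higher and 354 lower by at least 2-fold, and 233 had a negative interaction of that size. With no filter as well, these were 206, 359 and 232, with 126 positive.

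Libraries of the 2 groups share replicate numbers and matching library codes, whose meaning the labels do not give. The deviations of same-numbered libraries correlated at 0.328, 0.091 and 0.341, and each library correlated best with its own number. Between FoxOi and DMSO the same-numbered values were 0.48, 0.12 and 0.404. The reported fit did not treat them as pairs, so a gene not called there may be called with the number as a block. With a replicate block 9014 genes were called (6540 of the 6541, and 2474 more), the interaction was called for 4334 genes, 1920 positive and 2414 negative, and the ERK feedback median was 0.0023. Foxo1 was then called as lower (adjusted p = 0.0445) and Gc was not called (adjusted p = 0.0828).

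List medians near 0 changed sign. For ERK feedback genes it was -0.001 as reported, 0.0017 with RLE, 0.0226 with no filter, 0.0028 with DESeq2, 0.0025 on log2(FPKM + 1) with or without a filter, 0.0163 on log2(FPKM + 0.1), and -0.1641, 0.057 and 0.0249 without Loperamide replicate 1, 2 and 3. For the EGF receptor family it was -0.3014 in the fit to the 6 libraries and ran from -0.1325 without FoxOi_Loperamide replicate 2 to 0.5086 without replicate 1. With 1 of the 6 compared libraries left out it ran from -0.1533 to 0.0062 (without FoxOi_Loperamide replicate 1) for insulin and IGF signalling. For interferon genes it ran from -0.0057 (without FoxOi_Loperamide replicate 1) to 0.0633. For other hormones it ran from -0.3257 to 0.3077 (without Loperamide replicate 2), with 0.0977 without FoxOi_Loperamide replicate 3. The cause was not tested. Depth limits genes with few counts, such as Ldha, Aldh1a3 and Mmp12.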

Other observations

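Further gene families were picked by their symbols after the lists had been seen, and are described without a test. Their counts are to be read against the shares over all genes tested. With loperamide 18.4% were higher and 20.5% lower, without it 20.7% and 20.3%, and the interaction was positive for 3.66% and negative for 5.82%. Of all 80 cytosolic ribosomal protein genes tested, 64 were higher and 0 lower in FoxOi_Loperamide than in Loperamide, with a median log2 fold change of 0.60. Of 54 translation initiation factor genes 32 were higher and 3 lower (median 0.30), of 77 mitochondrial ribosomal protein genes 22 were higher and 1 lower (median 0.22), and of 8 subunits of the cytosolic chaperonin 6 were higher and 0 lower (median 0.34). Nucleoporins had 9 of 20 higher and 0 lower, and tubulins 10 of 19 higher and 2 lower. Subunits of complex I had 8 of 47 higher, near the share over all genes, and 1 lower, with a median of 0.07. Of the 9 protein genes of the mitochondrial genome 0 were higher and 1 was lower.

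More members were lower than higher among potassium channels, coat proteins and synaptotagmins. Of 48 potassium channel genes 23 were lower and 6 higher with the inhibitor in loperamide (median -0.68), against 15 lower and 12 higher without loperamide (median -0.12). Of 19 subunits of the COPI and COPII coats, which carry cargo between the endoplasmic reticulum and the Golgi, 10 were lower and 0 higher (median -0.32), and of 12 synaptotagmins, the calcium sensors of vesicle fusion, 7 were lower and 1 higher (median -0.46). Kinesins, the motors of microtubule transport and of the spindle, had 13 of 37 higher and 7 lower with loperamide and 4 higher and 16 lower without it, with 13 positive and 1 negative interactions. Of 19 subunits of the V-ATPase, the lysosomal proton pump, 9 were higher and 2 lower with loperamide (median 0.23), and of 20 zinc transporters 6 were higher and 3 lower (median -0.02).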
